A study of Rattus norvegicus with 13 samples.

Results

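Collagens and laminins are the structural proteins of the extracellular matrix, and their genes were examined in adolescent male rats, in the medial preoptic area (MPOA) of the hypothalamus, after injection of a short hairpin RNA (shRNA) against Oprm1, which encodes the mu opioid receptor. The genes were taken by symbol, as Col followed by a chain number or as Lama, Lamb or Lamc followed by a number, and 52 of the 14855 genes per the authors' deposited table matched. One of the 52, Col4a3bp, matched by its name alone. It encodes a ceramide transfer protein, whose current RefSeq symbol is Cert1, and is counted apart, which leaves 51 matrix genes: 6 collagen IV chains, 10 laminin chains, 11 fibrillar collagens and 24 other collagens.

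In the brain, collagen IV and laminin form the basement membrane around blood vessels and beneath the pia. Laminins are trimers of an alpha, a beta and a gamma chain that self-assemble on cell surfaces, and collagen IV forms the second network of the same sheet. Fibrillar collagens build the fibres of meninges and vessel walls, and the remaining collagens decorate fibrils, form beaded or short networks, or span cell membranes. Endothelial cells, pericytes, astrocytes and perivascular fibroblasts are known sources of these proteins in brain tissue.

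RNA sequencing covered 5 samples of Oprm1 shRNA and 7 of scrambled shRNA, all from male SAS Sprague-Dawley rats, and a further Oprm1 shRNA sample was left out by its label. On postnatal day 21 every rat, in both groups, received bilateral injections of 0.5 uL per side of an AAV5 vector that carried GFP and the shRNA under a U6 promoter, a promoter active in most cell types. The MPOA was dissected from 200 micron sections between −0.24 and −0.72 mm from bregma at an adolescent age that the labels do not give in days. The comparison asks which genes differ between the 2 groups. Nothing in the labels ties each sample to its own rat, and the p-values therefore cover only the spread between these samples.

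Only the comparison itself was analysed here: a log2 fold change, Oprm1 shRNA over scrambled shRNA, and a log2 of the average CPM (reads scaled by library size) over all libraries. Values per sample and depth per sample were not analysed here, so spread enters through the authors' likelihood ratio statistic (LR), from which an approximate 95% interval was derived for each fold. An average CPM is not divided by transcript length; it shows how many reads stand behind a value and does not rank genes by level. The targeted gene Oprm1 had a log2 fold change of −0.58 per the authors' deposited table, with a fold interval from 0.0715 to 6.27, and so does not check the group labels. Of 14 markers of preoptic and anterior hypothalamic neurons, 14 were in the table, from 1.03 to 574 CPM around a median of 15.6. Per the authors' deposited table, the estrogen receptor gene Esr1 averaged 41.8 CPM and the galanin gene Gal 64.1 CPM. Both were chosen after their values were seen.

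No collagen or laminin gene passed an adjusted p under 0.05. The count was 0 of 52 in the authors' edgeR likelihood ratio test, beside a background of 0.0202% of all genes. Per the authors' deposited table, each of the 52 had an adjusted p of 0.9997. At an unadjusted p under 0.05 there were 3 members of 52, among them the collagen genes Col8a1 and Col1a2, beside 4.39% of all genes. That is 5.77% of the members, a share close to the background. One of the 3 was higher, where the background is 1.49%, and 2 were lower, where it is 2.9%.

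The direction of the members was split evenly. With Oprm1 shRNA 26 of the 51 matrix genes were higher and 25 lower per the authors' deposited table, and their median log2 fold change was 0.01. Over all genes 48.4% were higher and the median was −0.02 in the same table. In bulk tissue, fewer cells of a type and less RNA per cell cannot be told apart, so none of these values says which cells the RNA came from.

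**Figure D1:**
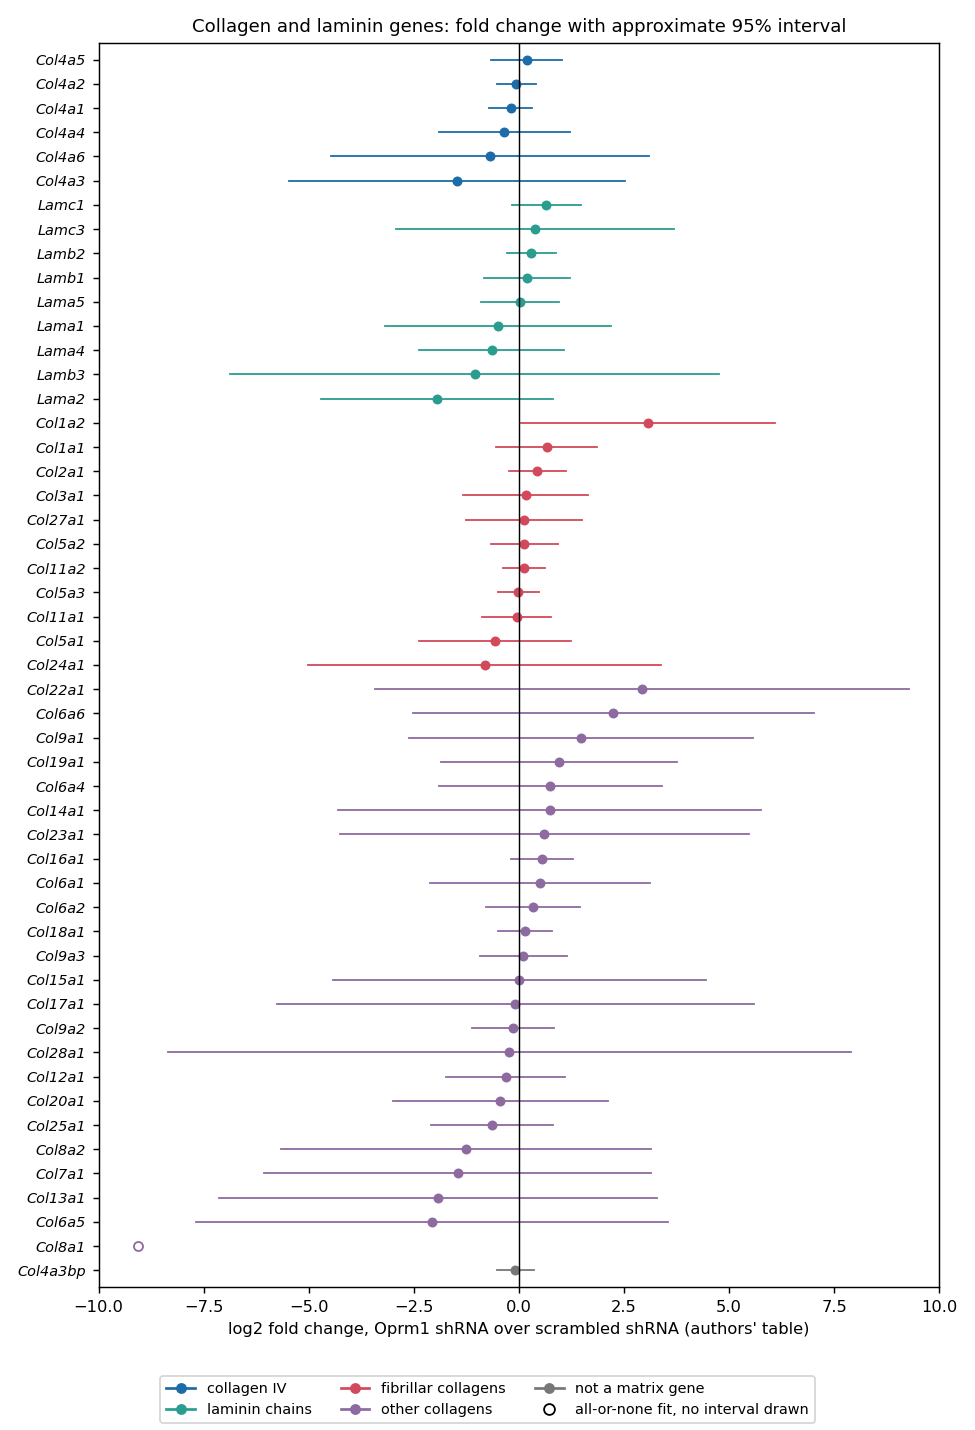
Log2 fold change (x axis) of 51 of the 52 genes (y axis), Oprm1 shRNA over scrambled shRNA, as points with approximate 95% intervals as lines, coloured by class; the open circle of Col8a1 is a fit with hardly any reads in one group, drawn without an interval. All intervals drawn cross 0 except that of Col1a2, whose lower end is 0.04, and the lines are short for Col4a2 and Col5a3 and long for Col28a1 and Col22a1.

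How firmly a change could be bounded depended on the reads behind each gene. For 9 of the 51 matrix genes the whole interval lay within a 2-fold change in either direction. They are the basement membrane chains Col4a1, Col4a2, Lama5 and Lamb2, the fibrillar chains Col5a2, Col5a3, Col11a1 and Col11a2, and Col18a1. Of these, Col4a2 and Col5a3 lay within 1.5-fold. For 22 genes the interval lay within 4-fold. For the other 29 it reached beyond 4-fold upward, downward or both, so a change of that size was not excluded for them. The 29 include Col8a1, a fit with hardly any reads in one group, for which the interval is a poor bound. Col11a1, Col5a2 and Lama5 are named for their intervals, after their values were seen.

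Precision followed abundance as in the rest of the table. The 7 matrix genes with a log2 average CPM between 6 and 8 had fitted log2 fold changes from −0.19 to 0.30 per the authors' deposited table. Their median implied standard error, computed here from the LR, was 0.26, beside 0.26 for all 3000 genes of that range. Among the 16 matrix genes between 4 and 6, 12 were higher and 4 lower, from −0.64 to 0.66, where 2460 of 4907 genes were higher per the authors' deposited table. None of these 16, and none of the 7 above, had an unadjusted p under 0.05, beside 2.3% and 4.53% of all genes in those ranges; no matrix gene lay at 8 or above, where it was 4.6%. Between 2 and 4, 1 of 13 matrix genes did, beside 1.02% of all genes there. Under 2 it was 2 of 15, beside 12.2%, and those 15 had a median implied standard error of 2.66 (log2).

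**Figure D2:**
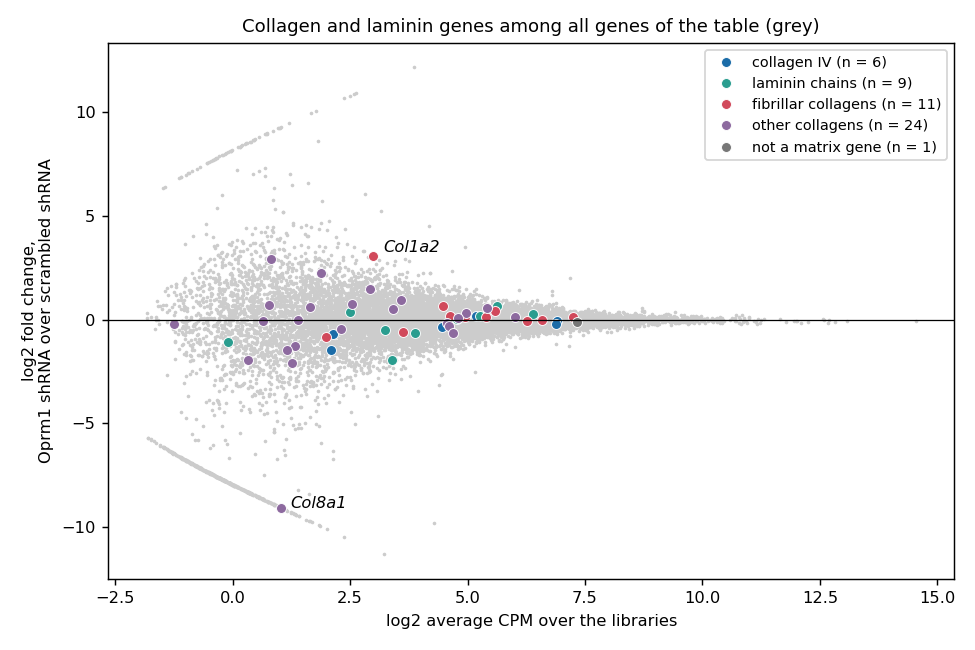
Log2 fold change (y axis), Oprm1 shRNA over scrambled shRNA, against log2 average CPM (x axis) for all 14855 genes in grey and 51 of the 52 members coloured by class. Col8a1 lies on the lower edge line of the grey cloud, where fits with hardly any reads in one group fall, and Col1a2 near its upper rim.

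Of the collagen IV chains, the core of every basement membrane, 1 was higher and 5 lower per the authors' deposited table, and their log2 fold changes ranged from −1.46 to 0.19 around a median of −0.27. None had an unadjusted p under 0.05. The 3 lowest values belong to the chains with the widest intervals of the 6. Col4a1 and Col4a2, the chains of the common collagen IV trimer of vessels, were measured with many reads, at averages of 117 and 121 CPM per the authors' deposited table. Col4a1 had a fold of 0.874 with an interval from 0.613 to 1.25 (unadjusted p = 0.456), computed from the authors' deposited table. Col4a2 had a fold of 0.960 with an interval from 0.693 to 1.33 (unadjusted p = 0.805), computed from the same authors' deposited table. A fold under 0.613 therefore lies outside the intervals of both chains.

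These genes stand head to head: in the RefSeq annotation of GRCr8, a later rat assembly than the authors' Rnor_6.0, their start sites face away from each other with 76 bases between them. The stretch between the starts, known in human and mouse as a promoter shared by both genes, is printed from the RefSeq promoter table at chr16:84885521-84885596, read on the plus strand toward Col4a1. Capitals mark CCGCCC, which on the other strand reads GGGCGG, the letters of a GC box. Of the other motifs searched on both strands, neither CCAAT nor TATAAA is in these 76 bases. The upstream windows of 250 bases reach beyond this stretch, and those of Col4a1 and Col4a2 both hold CCAAT.
Col4a2 to Col4a1: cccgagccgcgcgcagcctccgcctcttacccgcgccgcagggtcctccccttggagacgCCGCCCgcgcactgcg

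The collagen IV chains Col4a3, Col4a4, Col4a5 and Col4a6 form the specialised networks known from kidney, eye and ear, and each pair again stands head to head. Between the annotated starts of Col4a3 and Col4a4 there are 412 bases, and the promoter windows of the genes share 88 of them, at chr9:91323740-91323827. This stretch, shown for comparison with the one above and read on the plus strand toward Col4a3, holds none of the motifs searched. Outside it, the 250-base window of Col4a3 holds a GC box, and that of Col4a4 holds none of the motifs.
Col4a4 to Col4a3: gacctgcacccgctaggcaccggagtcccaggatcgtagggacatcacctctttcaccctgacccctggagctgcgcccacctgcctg

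Col4a3 had a log2 fold change of −1.46 per the authors' deposited table, at 4.27 CPM and with a fold interval from 0.0227 to 5.78. Its neighbour Col4a4, chosen after its values were seen, had −0.34 there with a fold interval from 0.267 to 2.32. Col4a5 was the chain on the higher side, at 0.19 per the authors' deposited table with an interval from 0.635 to 2.04. Its neighbour Col4a6, also chosen after its values were seen, had −0.69 there at 4.39 CPM. The fold intervals of the genes in each of the 3 pairs overlap. Whether the libraries kept strand is not given in the sources used here. This bears on the reads only where transcripts of both genes of a pair overlap. The annotated starts leave 76 bases between Col4a1 and Col4a2, 412 between Col4a3 and Col4a4, and 1414 between Col4a5 and Col4a6.

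Laminin chains were split, with 5 higher and 5 lower of the 10 per the authors' deposited table, and their median log2 fold change was −0.24. None passed the threshold. The beta and gamma chains shared by most laminins of vessels and pia were on the higher side. Lamc1, the common gamma chain, had a fold of 1.58 with an interval from 0.893 to 2.78 at 49.5 CPM (unadjusted p = 0.116), from the authors' deposited table. Lamb2, a beta chain of vascular and synaptic laminins, had a fold of 1.23 with an interval from 0.825 to 1.84 (unadjusted p = 0.310), from the authors' deposited table. Lamb1, the other common beta chain, had a fold of 1.14 with an interval from 0.559 to 2.32 in the same authors' deposited table. Each interval includes 1, so a rise of these chains was not detected, and a rise up to the upper ends was not excluded.

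The alpha chains, which carry the receptor-binding domains, ranged on the log2 scale from 0.02 for Lama5 to −1.95 for Lama2 per the authors' deposited table. Lama2, the alpha chain of laminins made by pericytes, astrocytes and muscle, had a fold of 0.258 with an interval from 0.0381 to 1.75 at 10.5 CPM (unadjusted p = 0.166), from the authors' deposited table. Lama5, which is typical of mature vessels, had a fold of 1.02 with an interval from 0.533 to 1.94, from the authors' deposited table. Lama4, an endothelial chain, and Lama1, a chain of the pial surface, had log2 fold changes of −0.65 and −0.50 per the authors' deposited table. Their fold intervals ran from 0.193 to 2.11 and from 0.109 to 4.58. These 2 were chosen after their values were seen. Lama3 is not in the table used here.

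Lamb3 and Lamc3 rest on few reads. Lamb3, a beta chain known from epithelial laminin, had a log2 value of −1.05 at 0.929 CPM per the authors' deposited table, with a fold interval from 0.00859 to 27.2. Lamc3 had 0.38 there at 5.69 CPM, with an interval from 0.132 to 12.9.

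Taking collagen IV and laminins as the basement membrane genes, 6 of 16 were higher and 10 lower per the authors' deposited table, and their median log2 fold change was −0.27. Weighted by precision the mean was 0.02, and among the 8 with a log2 average CPM of at least 4 the median was 0.11, with 5 higher and 3 lower, so the sign of the class turns on its sparse members.

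Fibrillar collagens had 7 of 11 chains higher and 4 lower per the authors' deposited table, with their median log2 fold change at 0.13. The precision-weighted mean of these chains, computed here, was 0.14. None passed the threshold, and 1 of 11 had an unadjusted p under 0.05, a share of 9.09% beside the background of 4.39%. That gene was Col1a2, one of the chains of type I collagen, the main collagen of fibrous tissue. Col1a2 stood at a log2 fold change of 3.07 and an average of 7.99 CPM per the authors' deposited table, a fold of 8.38 with an interval from 1.03 to 68.4 (unadjusted p = 0.0472, adjusted p = 0.9997). Its partner Col1a1 had 0.66 at 22.3 CPM per the authors' deposited table, a fold of 1.58 with an interval from 0.686 to 3.64 (unadjusted p = 0.283). The genes differ by 2.41 on the log2 scale while their intervals overlap, and the difference itself could not be tested without values per sample.

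The upstream sequence of Col1a2 is shown because it is the member with a graded fold change and an unadjusted p under 0.05. The RefSeq window at chr4:33518307-33518392 of GRCr8, plus strand, ends here at the last base of the letters TATAAA, 164 bases before the annotated start. Whether these letters act as the TATA box of that start was not tested. Capitals mark ATTGG, the reverse complement of CCAAT, and TATAAA, with 46 bases between them. GGGCGG was not found on either strand of this stretch.
Col1a2: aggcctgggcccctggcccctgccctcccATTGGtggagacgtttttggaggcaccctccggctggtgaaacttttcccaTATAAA

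The other fibrillar chains lay closer to 0 than Col1a2. Col11a2, a chain of the thin fibrils known from cartilage, had a fold of 1.09 with an interval from 0.763 to 1.54 at 153 CPM, from the authors' deposited table. Col5a3, a chain that regulates fibril assembly, had a fold of 0.993 with an interval from 0.705 to 1.40 at 96.6 CPM, from the authors' deposited table. Col2a1, the cartilage fibril collagen, had a fold of 1.36 with an interval from 0.845 to 2.18 (unadjusted p = 0.207), from the authors' deposited table. The 6 others (Col3a1, Col5a1, Col5a2, Col11a1, Col24a1, Col27a1) had log2 fold changes from −0.82 to 0.16 per the authors' deposited table.

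Of the 24 other collagens 13 were higher and 11 lower per the authors' deposited table, and around a median of 0.06 their graded log2 fold changes ran from −2.07 to 2.94. None passed the threshold, and 1 had an unadjusted p under 0.05, a share of 4.17% beside the background of 4.39%. Their median implied standard error, in log2 units, was 2.17, against 0.61 for the fibrillar chains and 0.84 for the basement membrane genes, so this class is the least precisely measured of the 3. The gene with the small p was Col8a1, a short-chain collagen of vessel walls and the corneal basement membrane. Col8a1 was fitted at a log2 value of −9.07, with an average of 2.04 CPM, per the authors' deposited table (unadjusted p = 0.00458, adjusted p = 0.9997), a fit that arises where one group has hardly any reads, so no fold is given. Its partner chain Col8a2, chosen after its values were seen, had −1.26 there with a fold interval from 0.0196 to 8.87.

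Fits of this all-or-none kind, over 5 on the log2 scale in size, numbered 483 per the authors' deposited table, of which 82 were higher and 401 lower. They make up 3.85% of the 52 members and 3.25% of all genes.

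Among the collagens that sit on fibrils, the FACIT group, 6 of 9 were higher and 3 lower per the authors' deposited table, and their median log2 fold change was 0.55. Col16a1, which links fibrils to basement membranes, had a fold of 1.46 with an interval from 0.878 to 2.43 at 42.7 CPM (unadjusted p = 0.144), from the authors' deposited table. The other 8 had log2 fold changes from −0.45 to 2.94 there, and the 2 outermost, Col20a1 and Col22a1, had averages of 4.97 and 1.77 CPM; they were chosen after their values were seen. Collagen VI, which forms beaded filaments next to basement membranes, had 4 of 5 chains higher per the authors' deposited table, and their median log2 fold change was 0.50. Col6a2 had a fold of 1.26 with an interval from 0.582 to 2.73, and its partner Col6a1 a fold of 1.42 from 0.230 to 8.74, both chosen after their values were seen, from the authors' deposited table. Col6a6 stood at a log2 fold change of 2.25 and an average of 3.67 CPM per the authors' deposited table, with a fold interval from 0.174 to 130 (unadjusted p = 0.356). Col6a4 and Col6a5, chosen after their values were seen, had log2 fold changes of 0.75 and −2.07 there. Their fold intervals ran from 0.267 to 10.6 and from 0.00485 to 11.7. Col6a3 is not in the table used here.

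The multiplexins Col15a1 and Col18a1 are proteoglycans of the basement membrane zone, and cleavage of the Col18a1 product releases endostatin. Col18a1 had a fold of 1.10 with an interval from 0.710 to 1.72 at 64.4 CPM per the authors' deposited table. Col15a1 had a log2 fold change of 0.01 there, at 2.62 CPM and with a fold interval from 0.0465 to 21.7. Counting these 2 as basement membrane genes gave that class a median of −0.13 and left the other collagens at 0.01 (log2 fold change). The 4 transmembrane collagens had a median log2 fold change of −0.36 per the authors' deposited table, with 1 higher and 3 lower. Of them Col25a1, a neuronal collagen that binds amyloid, was at 25.9 CPM and had a fold of 0.640 with an interval from 0.234 to 1.75, from the authors' deposited table. The last 2, Col7a1 and Col28a1, had log2 fold changes of −1.46 and −0.22 at 2.22 and 0.423 CPM per the authors' deposited table. Col15a1, Col25a1, Col7a1 and Col28a1 were chosen after their values were seen. The gene that matched by name alone, Col4a3bp, had a fold of 0.943 with an interval from 0.693 to 1.28 at 162 CPM, from the authors' deposited table.

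Promoter windows of 250 bases upstream of the annotated start were found in the RefSeq table for 40 of the 51 matrix genes. The GC box GGGCGG, on either strand, was in 24 of the 40 windows (60%), against 32.4% of all 27457 promoters. By class it was in 5 of 6 collagen IV windows, 6 of 8 fibrillar windows, 5 of 8 laminin windows and 8 of 18 windows of other collagens. The windows of Col4a1 and Col4a2 share 176 bases, so the GC box printed above is counted in both. The 27457 promoters include those of genes that are not among the 14855 analysed here. The windows of matrix genes were also richer in G and C, with a median of 59.4% against 52% of all promoters, a property that the GC box count shares. CCAAT was in 12 of 40 windows (30%), against 34.3% of all promoters, and TATAAA in 4 of 40 (10%), against 13.1%. These are matches of letters in windows that depend on the annotated start.

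Genes that make, modify, bind or cut collagens and laminins were listed by function and described beside the matrix genes. None of the 65 genes measured in these 6 lists passed an adjusted p under 0.05, and 2 of them had an unadjusted p under 0.05, a share of 3.08% beside 4.39% of all genes. Of 10 basement membrane partners measured, 3 were higher and 7 lower per the authors' deposited table, and their median log2 fold change was −0.11. Agrn, the proteoglycan agrin, had a fold of 1.18 with an interval from 0.973 to 1.43, and Sparc, a collagen-binding protein secreted by astrocytes and endothelium, a fold of 0.937 from 0.862 to 1.02, from the authors' deposited table. Of 14 enzymes and chaperones of collagen folding, 8 were higher and 6 lower per the authors' deposited table, and their median was 0.09 on the log2 scale. Colgalt2, a collagen galactosyltransferase, had −2.32 at 4.74 CPM and P3h3, a member of the prolyl hydroxylase family, had 0.31 per the authors' deposited table.

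Of 10 genes for collagen processing and crosslinking, 6 were higher and 4 lower per the authors' deposited table, and their median log2 fold change was 0.15. The crosslinking enzymes Lox and Loxl2 had all-or-none values of −7.69 and −7.12 at 0.853 and 0.602 CPM per the authors' deposited table (unadjusted p = 0.0489 and 0.0550). Of 12 matrix proteases and inhibitors, 7 were higher and 5 lower, with a median of 0.17 per the authors' deposited table. Mmp17, a membrane-anchored metalloproteinase, had a fold of 1.48 with an interval from 0.944 to 2.31, and the inhibitor Timp4 had 1.54 from 0.799 to 2.98, from the authors' deposited table. Of 12 receptors for collagen and laminin, 9 were higher and 3 lower per the authors' deposited table, and their median log2 fold change was 0.16. Itga11, an integrin subunit that binds fibrillar collagen, had an all-or-none value of 10.94 at 6.16 CPM per the authors' deposited table (unadjusted p = 0.000301, adjusted p = 0.371 over all genes). Itga3, a laminin-binding integrin subunit, had a fold of 1.25 with an interval from 0.869 to 1.79, from the authors' deposited table. Of 7 small proteoglycans that bind collagen, 2 were higher and 5 lower per the authors' deposited table, and their median was −0.29 on the log2 scale. Bgn, biglycan, had a fold of 1.57 with an interval from 0.736 to 3.35 and Ogn, osteoglycin, had 0.498 from 0.0638 to 3.88, from the authors' deposited table.

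**Figure D3:**
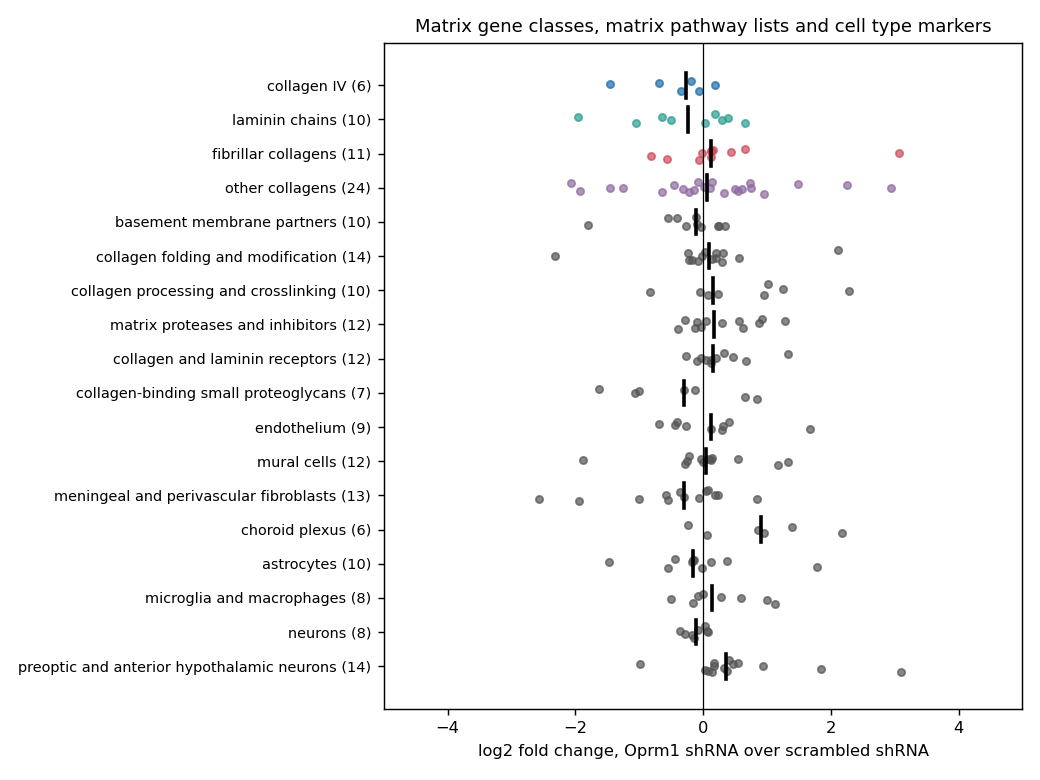
Log2 fold change (x axis), Oprm1 shRNA over scrambled shRNA, of every gene (points) in the 4 classes of matrix genes, the 6 matrix pathway lists and the 8 lists of cell type markers (rows, with the number of genes measured); black bars are medians over all measured genes of a row, and fits over 5 in size are left out of the points. Medians lie between −0.29 and 0.35 in all rows but choroid plexus, whose 6 genes have a median of 0.91. The median implied standard error of those 6 genes is 2.64 on the log2 scale.

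Among markers of vessels, fibroblasts and choroid plexus, 0 passed an adjusted p under 0.05 in the authors' edgeR test, beside 0.0202% of all genes. At an unadjusted p under 0.05 there were 0, beside 4.39% of all genes. Of 9 endothelial markers 5 were higher, the median log2 fold change was 0.13, and Slco1a4 and Kdr had −0.41 and −0.69 per the authors' deposited table. Of 12 mural cell markers 6 were higher, with a median of 0.04, and Tagln, a smooth muscle protein, had a fold of 2.51 with an interval from 0.985 to 6.40 (unadjusted p = 0.0538) beside 1.17 on the log2 scale for Rgs5 per the authors' deposited table. Of 13 markers of meningeal and perivascular fibroblasts 5 were higher and 8 lower, with a median of −0.29 on the log2 scale per the authors' deposited table. Slc6a13 and Foxc1 had the smallest p of that list, with log2 fold changes of −1.94 and −2.56 at 5.30 and 0.976 CPM per the authors' deposited table. This list shares Dcn, Lum and Ogn with the small proteoglycans. Of 6 choroid plexus markers 5 were higher per the authors' deposited table. Aqp1 and Clic6 led at 2.17 and 1.39 on the log2 scale, at 1.22 and 2.44 CPM there. The fold interval of Aqp1 ran from 0.0297 to 679 and that of Clic6 from 0.0812 to 84.7. Ttr and Kcnj13 are not in the table used here.

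In the lists of other cell types, given as log2 fold changes, 0 genes passed, beside 0.0202% of all genes. At an unadjusted p under 0.05 there were 2, beside 4.39% of all genes. They were 1 of 10 astrocyte markers and 1 of 8 neuronal markers, with 0 in the other lists. Of 10 astrocyte markers 3 were higher, with a median of −0.15, and Slc1a2 had −1.47 (unadjusted p = 0.0275) and Gfap 0.37 per the authors' deposited table. Of 8 markers of microglia and macrophages 4 were higher, with a median of 0.14, and Mrc1 had 1.13 and Tmem119 −0.50 per the authors' deposited table. Of 8 neuronal markers 3 were higher, with a median of −0.12, and Map2 had −0.15 (unadjusted p = 0.00635) and Syt1 −0.18 per the authors' deposited table. Of 14 preoptic and anterior hypothalamic markers 13 were higher, with a median of 0.35. Gad1 had 0.17 and Otp 3.09 per the authors' deposited table. Otp averaged 2.76 CPM, with a fold interval from 0.301 to 242. The part of cell composition in the values of the matrix genes was not tested.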

How the data were processed

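Per the submitters' processing notes, the authors used edgeR 3.28.0 after STAR 2.5.3a and RSEM, with bcl2fastq 2.20 and the build Rnor_6.0; the annotation release, filter on low counts, dispersion and covariates are not given in the sources used here. Per the file headers, the authors deposited one edgeR comparison of Oprm1 shRNA with scrambled shRNA: a log2 fold change and a log2 average CPM, the LR, a score, and each gene's p-value before and after adjustment. The deposited p-values follow from the LR as chi-square with 1 degree of freedom, checked on every gene. The adjusted ones imply 14859 tests, slightly more than the 14855 genes analysed here. The foreseen case of a table of the authors' own comparison applied, so their test was used as given. RSEM estimates how reads shared by similar transcripts are divided.

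An implied standard error was computed as the absolute log2 fold change over the square root of the LR, with an approximate 95% interval. It is poor for all-or-none genes. The depth per sample is unknown. Python 3.11.15 with numpy 2.4.6, pandas 2.3.3, scipy 1.17.1 and matplotlib 3.10.9 was used. The calculation was tested on simulated fold changes with normal errors. That checks the arithmetic and cannot show how well the intervals hold for read counts. Members and lists were chosen with earlier results of these data known. Named genes are those at an unadjusted p under 0.05, in each class the 3 with the smallest p, the 2 with the highest CPM and the 2 with the narrowest interval, their partner chains, and the 2 of smallest p in each other list. Some genes the rule names are not reported here. Further genes are marked as chosen later. Motifs were searched on both strands of 1 RefSeq window (GRCr8) per gene; Col4a3bp was not matched by symbol.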

Additional observations from a re-analysis of the deposited data

How the results depend on the processing

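The count of 0 members past the threshold was also 0 at an adjusted p under 0.1, and by construction under 0.01. It was 0 with the adjustment redone over the table, which nearly repeats the authors' own. Redone over genes whose log2 average CPM is 0 or more, it was 0 too. The count of 3 at an unadjusted p under 0.05 was 0 among members whose log2 average CPM is 4 or more, which by construction leaves out all 3. It was 1 without all-or-none genes, an alternative chosen after seeing the data, which by construction leaves Col1a2. It was 3 in the other alternatives. All 19 alternative medians and weighted means moved by less than the median implied standard error of their genes, a loose yardstick because it describes individual genes. For all members together, with a median at −0.00 on the log2 scale, they lay between 0.01 and 0.12. For the basement membrane genes the sign turned: the median of −0.27 stands against 0.02 as a weighted mean and 0.11 where log2 average CPM is 4 or more. The fibrillar collagens lay between 0.13 and 0.14, and the other collagens between 0.01 and 0.13. Redoing the adjustment changed none of the 52 gene calls. No paired analysis was possible because the table holds no values per sample, and for the same reason no sample was left out in turn. Reads limit these results: under log2 average CPM 2, only changes beyond about 37.0-fold clear the interval of a matrix gene at the median.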
